A study of Mus musculus with 8 samples.

Results

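Mast cells are tissue-resident granule cells and basophils are their short-lived counterparts in blood, and 10 genes that mark them were followed in whole lungs of bone marrow chimeras given diphtheria toxin. The genes were found by array gene name: Tpsb2, Tpsab1, Cma1, Mcpt4, Mcpt8, Cpa3, Fcer1a, Ms4a2, Kit and Hdc. They were read by 15 of the 56605 probes on the array and are 10 of its 37074 gene names.

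Lungs came from 8 male mice aged 22 weeks, 72 hours after diphtheria toxin, with 1 array per mouse and 2 mice in each of 4 groups. In LL mice, LysM-DTR marrow had been placed in LysM-DTR recipients. WL mice carried wild-type marrow in LysM-DTR recipients, LW mice carried LysM-DTR marrow in wild-type recipients, and WW mice were wild type on both sides. LysM-DTR denotes expression of the diphtheria toxin receptor from the lysozyme M promoter, which is active in macrophages, monocytes, neutrophils and alveolar type 2 cells. Every group had received the toxin, no array without toxin was analysed, and the labels do not give the mouse strain or the share of recipient blood cells left in the chimeras. Mast cells can survive for long in a recipient's tissues, so their origin in a chimera is not fixed by the marrow donor.

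Mast cells and basophils bind IgE through a surface receptor with an alpha chain (Fcer1a), a beta chain (Ms4a2) and a signalling gamma chain shared with other receptors. When antigen links the bound IgE, the cells release histamine, made by histidine decarboxylase (Hdc), and granule proteases. Mast cells store tryptases (Tpsb2, Tpsab1), chymases (Cma1, Mcpt4) and carboxypeptidase A3 (Cpa3), whereas Mcpt8 is the basophil protease of mice. Kit, the stem cell factor receptor, keeps mast cells alive and is absent from mature basophils.

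Levels are log2 intensities relative to each array's 75th percentile, so that a level of 0 equals that percentile. They cannot be compared between probes. The 75th percentile itself ran from 208.6 to 324.4 intensity units over the arrays, and 64.8 to 71% of the probes were well above background. The 2 mice of a group correlated across genes at r = 0.99 in LL, 0.96 in WL, 0.99 in LW and 0.992 in WW, although genes do not vary independently. The WL mice thus stood apart from each other, and their spread enters every test. All 8 arrays lay on 1 slide, with LL and WL in column 1 and LW and WW in column 2, so recipient genotype and slide column cannot be told apart. Lyz2, the lysozyme M gene, was at 4.67 and 4.94 in LL, 8.7 and 7.36 in WL, 8.99 and 8.84 in LW, and 9.05 and 9.09 in WW (LL minus WW -4.27, SE 0.408, limma adjusted p = 0.0122). The labels do not say whether the mice of a group came from separate transplantations, so p-values measure the spread between these mice.

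The probes decide which transcript each value stands for. The opening 30 bases of 5 of the 60-base protease probes are shown in lower case, since the tryptases and chymases are families of close relatives.
Tpsb2: gggctgtgctgtctttaactcactgcttcc
Tpsab1: gacttgaagtatcacaaaggtctcatcaca
Cma1: ataagatcttgagggagaattaactctgga
Mcpt4: tgaaagatgaattctgtgatgatggactgt
Cpa3: gccaagtatatcctcaagaatacttcctaa
The Tpsb2 probe lies on chromosome 17, 25504819 to 25504878 (mm9, plus strand), and the Tpsab1 probe on the same chromosome at 25480640 to 25480699 (minus strand). The Cma1, Mcpt4 and Mcpt8 probes lie close together on chromosome 14, at 56560454 to 56560513, 56678589 to 56678648 and 56701075 to 56701134. The Tpsb2 probe's longest run of bases in common with any of the other 56604 probes was 14, on a probe of Mpdu1, which is no tryptase. Over all 15 probes that longest run was 13 to 16 bases. How far each probe also binds transcripts of a relative was not measured.

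Of the 10 genes, 9 had a probe that both arrays of some group read well above background, and these were tested, and 6 of the 9 were above background on all 8 arrays. Between LL and WW 1 of the 9 passed, Tpsb2, which was higher, and none was called lower. Over all 25830 genes tested, 3.13% passed in this comparison, with 1.21% higher and 1.92% lower. The difference was below 0 for 7 of the 9 genes, with a median of -0.53 on the log2 scale against 0.03 over all genes. The LL and WW mice did not overlap for 7 of the 9, and they did not overlap for 69.5% of all genes. In a bulk lung sample, fewer cells of a type and less RNA per cell cannot be told apart.

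**Figure D1:**
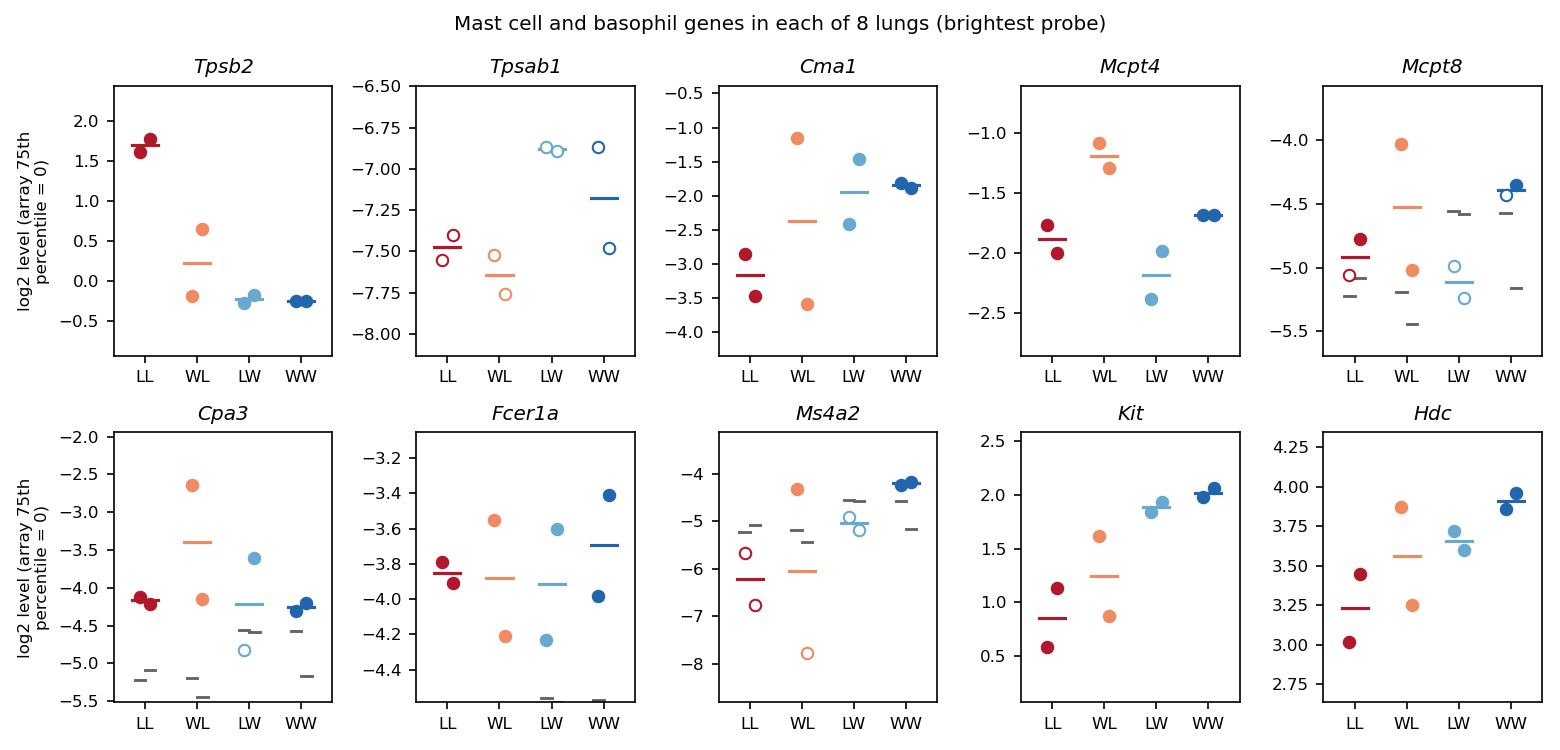
Each panel shows 1 gene, with the log2 level relative to the array's 75th percentile on the vertical axis and the 4 groups on the horizontal axis. Points are single mice, filled where the probe was well above background and open where it was not, coloured bars are group means, and short grey bars mark each array's lowest level well above background where it falls in the panel. Tpsb2 is highest in the 2 LL mice (1.61 and 1.77), Kit and Hdc are lowest in an LL mouse, and Tpsab1 is open on all 8 arrays.

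Tpsb2, the mast cell tryptase known as mouse mast cell protease 6, separated LL from the other groups. It stood at 1.61 and 1.77 in LL, -0.19 and 0.64 in WL, -0.28 and -0.18 in LW, and -0.26 and -0.25 in WW mice. In intensity units before scaling, the same probe read 760 and 827 in LL, 237 and 506 in WL, 209 and 222 in LW, and 204 and 175 in WW. Both LL mice were above every other mouse, and the second WL mouse lay between LL and the rest.

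Tpsb2 rose by 1.95 on the log2 scale in LL against WW, a 3.85-fold difference (SE 0.272, 95% interval 1.29 to 2.61, adjusted p = 0.0245). Against LW the rise was 1.92, or 3.79-fold (SE 0.272, adjusted p = 0.0287), where 2.8% of all genes passed. Against WL the LL mice differed by 1.46 (SE 0.272, adjusted p = 0.067), which did not pass. WL differed from WW by 0.48 (SE 0.272, adjusted p = 0.486) and LW differed from WW by 0.02 (95% interval -0.64 to 0.68, adjusted p = 1). The groups therefore ran LL, WL, LW and WW from high to low, with WL, LW and WW not separated beyond their spread. The interaction of donor and recipient genotype was 1.44 (SE 0.384, adjusted p = 0.308). The call against WW rests on having all arrays of LL, LW and WW. Without either LL, LW or WW array the adjusted p was 0.0664 to 0.158 with a difference of 1.86 to 2.03, and without either WL array it was 0.00179. The call against LW was lost likewise, at an adjusted p of 0.076 to 0.161 without either LL, LW or WW array. Leaving out 1 array leaves 1 mouse in that group, which is then assumed to vary like the others. Without WL replicate 1 the WL difference from WW was 0.9 (adjusted p = 0.00758), and without WL replicate 2 it was 0.07 (adjusted p = 0.998).

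Tpsab1, the tryptase known as mouse mast cell protease 7, was not well above background on any of the 8 arrays, so no difference was tested. Its values lay between -7.76 and -6.87. C57BL/6 mice are known to lack this tryptase through a splice-site mutation, and the labels do not name the strain.

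Neither chymase was highest in LL, and neither passed in any comparison. Cma1, a chymase of connective tissue mast cells, was at -2.85 and -3.47 in LL, -1.15 and -3.59 in WL, -2.42 and -1.46 in LW, and -1.81 and -1.88 in WW. Both LL mice lay below both WW mice, but the WL mice spanned the whole range of the other groups. The LL minus WW difference was -1.32 (SE 0.776, 95% interval -3.2 to 0.57, adjusted p = 0.324). Mcpt4, the chymase nearest in function to the human enzyme, was at -1.76 and -2 in LL, -1.08 and -1.29 in WL, -2.38 and -1.98 in LW, and -1.68 and -1.68 in WW. The order of Mcpt4 was WL, WW, LL and LW from high to low, unlike that of Tpsb2. Its LL minus WW difference was -0.2 (SE 0.19, 95% interval -0.67 to 0.26, adjusted p = 0.515). WL stood 0.5 above WW (SE 0.19, adjusted p = 0.486) and LW stood 0.5 below it (log2 difference -0.5, SE 0.19, adjusted p = 1).

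Cpa3, which trims peptides in mast cell granules and is also made by basophils, was at -4.12 and -4.21 in LL, -2.64 and -4.15 in WL, -4.82 and -3.6 in LW, and -4.31 and -4.2 in WW. The first WL mouse was highest, and the LL and WW mice overlapped. It was above background on every array but the first LW one, and LL differed from WW by 0.09 (SE 0.568, 95% interval -1.29 to 1.47, adjusted p = 0.936). The interval takes in a change of more than 1 on the log2 scale in either direction. Mcpt8, the basophil protease, was close to the background throughout, at -5.06 and -4.78 in LL, -4.03 and -5.02 in WL, -4.99 and -5.24 in LW, and -4.43 and -4.35 in WW. It was well above background on 1 LL, 2 WL, 0 LW and 1 WW array. The lowest level above background was higher on both LW arrays and the first WW array than on the others, as the grey bars in the plot of levels show. A group below background on both arrays has only an approximate bound, set by the lowest level above background. A spot's own limit can lie higher: on the first WW array Mcpt8, at -4.43, was not well above background, although the lowest such level was -4.57. With 1 of the 2 WW arrays above background, the size of the difference between LW and WW was not bounded (adjusted p = 1). The LL minus WW difference was -0.53 (SE 0.325, adjusted p = 0.339).

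Fcer1a and Ms4a2, the IgE receptor chains among the 10 genes, read near background. Fcer1a, the chain that binds IgE, was at -3.79 and -3.91 in LL, -3.55 and -4.21 in WL, -4.23 and -3.6 in LW, and -3.98 and -3.41 in WW. All groups overlapped, and LL differed from WW by -0.16 (SE 0.331, 95% interval -0.96 to 0.65, adjusted p = 0.783). Ms4a2, the beta chain that amplifies the signal, was at -5.67 and -6.77 in LL, -4.32 and -7.77 in WL, -4.91 and -5.18 in LW, and -4.23 and -4.18 in WW. It was above background on both WW arrays and 1 WL array, and on no LL or LW array. By the approximate bound it was at least 1.92-fold lower in LL than in WW (measured means -6.22 and -4.2, adjusted p = 0.27). In LW it was at least 1.29-fold lower than in WW by the same bound (measured means -5.04 and -4.2, adjusted p = 1). Neither difference passed. A second Ms4a2 probe was below background on all 8 arrays and could not bear on this.

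Kit was at 0.59 and 1.13 in LL, 1.62 and 0.87 in WL, 1.84 and 1.93 in LW, and 1.98 and 2.06 in WW. Both LL mice were below every LW and WW mouse, while 1 WL mouse lay within the LL range and the other between LL and the rest. The LL minus WW difference was -1.16 (SE 0.292, 95% interval -1.87 to -0.45, adjusted p = 0.0935), and LL minus LW was -1.03 (adjusted p = 0.113). Its other 2 probes gave -0.45 (adjusted p = 0.273) and -0.41 (adjusted p = 0.235) for LL minus WW, in the same direction but smaller. Kit is also made by lung capillary endothelium and blood progenitors. None of 18 capillary endothelial genes passed between LL and WW in limma (median 0.06). At an unadjusted p under 0.05 there were 6 of the 18, where 24.8% of all genes were. The difference was above 0 for 10 of the 18 and below 0 for 8, from -1.03 for Aplnr to 0.94 for Vwf. Cd93 (0.77, adjusted p = 0.0502) and Cldn5 (0.7, adjusted p = 0.0973) had the smallest p. The summed level of the 18, in which bright probes weigh most, was 394 and 435 in LL and 275 and 306 in WL. It was 296 and 292 in LW and 312 and 313 in WW, relative to the 75th percentile. The brightest gene, Vwf, was 16 to 27.4% of it. Of 10 progenitor genes 8 did not pass, with the difference above 0 for 3 of the 10 and below 0 for 7 (median -0.43). Cd34 rose by 1.13 (SE 0.209, adjusted p = 0.0488) and Gfi1 fell by 2.02 (SE 0.364, adjusted p = 0.0461). The part of these cells in the Kit level was not tested.

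Hdc was at 3.02 and 3.45 in LL, 3.87 and 3.25 in WL, 3.72 and 3.6 in LW, and 3.86 and 3.96 in WW. As with Kit, both LL mice were below every LW and WW mouse, and the second WL mouse fell among the LL values. The LL minus WW difference was -0.68 (SE 0.251, 95% interval -1.29 to -0.07, adjusted p = 0.174), and the other 2 probes gave -1.7 (adjusted p = 0.077) and -0.33 (adjusted p = 0.297). Hdc is made by neutrophils and other myeloid cells as well. None of 16 neutrophil genes passed between LL and WW in limma (5 at an unadjusted p under 0.05, against 24.8% of all genes, median -0.25). The genes moved both ways, with the difference above 0 for 6 and below 0 for 10, from -3.91 for Il1b to 2.79 for Ngp. Ly6g (1.57, adjusted p = 0.0782) and Cxcr2 (-3.3, adjusted p = 0.0799) had the smallest p. Their summed level was 301 and 468 in LL, 279 and 376 in WL, 300 and 398 in LW, and 345 and 505 in WW for the 16 genes. The receptor Csf3r made up 34.1 to 58.5% of that sum. Of 15 monocyte and macrophage genes 12 fell in LL (median -4.27), and the part of either cell type in the Hdc level was not tested.

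**Figure D2:**
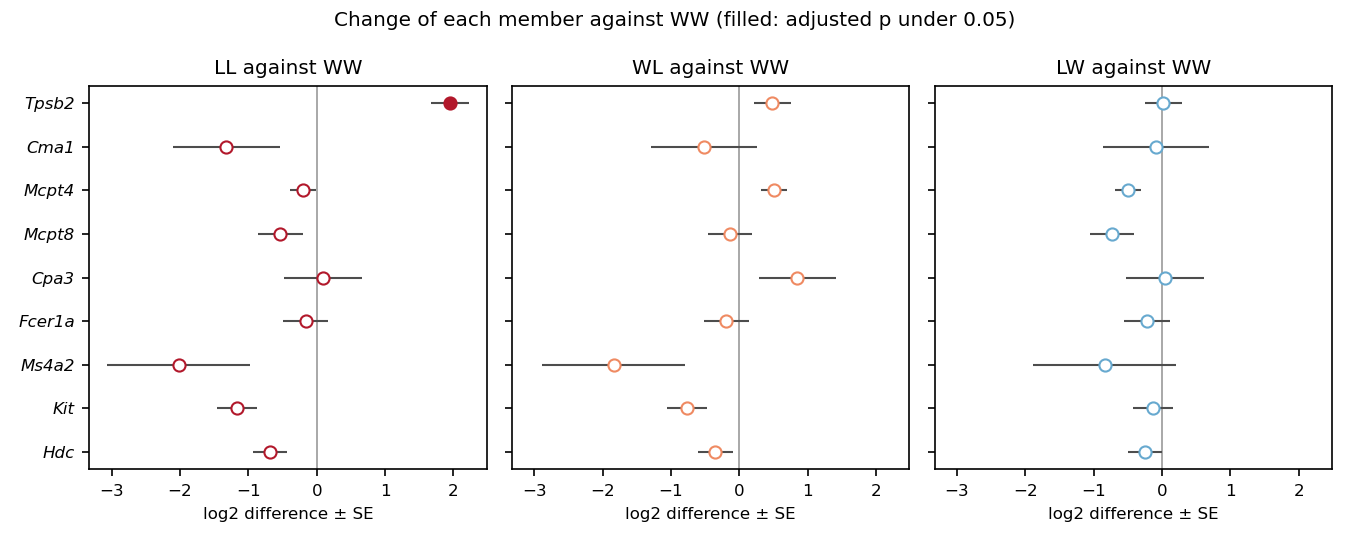
Points are log2 differences from WW with their standard errors for the 9 tested genes, in LL, WL and LW. Filled points passed at an adjusted p under 0.05, which Tpsb2 in LL did (1.95), and the widest errors are those of Ms4a2 and Cma1.

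With wild-type marrow in LysM-DTR recipients no gene of the 9 passed (WL against WW, limma). Of all genes 0.00387% passed, and at an unadjusted p under 0.05 the counts were 2 of the 9, Mcpt4 and Kit, and 2112 of all. WL and WW did not overlap for 5 of the 9, against 42% of all genes. The first WL mouse was the highest of all 8 for Cma1, Mcpt4, Mcpt8 and Cpa3, and the second WL mouse was the lowest of all 8 for Cma1. With LysM-DTR marrow in wild-type recipients no gene of the 9 passed either (LW against WW, limma). Of all genes 0.0542% passed, and the unadjusted counts were 1 of the 9, Mcpt4, and 569 of all. LW and WW did not overlap for 5 of the 9, against 33.9% of all genes. LL against WL gave no call among the 9 (1.72% of all genes), with 2 of the 9 and 3757 of all genes at an unadjusted p under 0.05. The interaction gave none (0.0619% of all genes), with 1 of the 9 and 2360 of all genes unadjusted. All comparisons against WW share its 2 arrays.

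Leaving both WL arrays out of the model narrowed the errors and changed the LL against WW calls. Then 6 of the 9 genes passed, Tpsb2 higher and Cma1, Mcpt8, Ms4a2, Kit and Hdc lower, with adjusted p-values of 0.00179, 0.0497, 0.0478, 0.0152, 0.012 and 0.0342 in that order. Ms4a2 was below background on both LL arrays and Mcpt8 on 1 of them, so their fitted size is no measured one. In the same model 32.1% of all genes passed, 17.3% higher and 14.8% lower. With the LL and WW arrays alone 4 of the 9 passed, Tpsb2, Cma1, Ms4a2 and Kit, where 24.2% of all genes did. Against LW, with no WL array in the model, Tpsb2 and Kit passed (adjusted p = 0.00166 and 0.0163), where 32.8% of all genes did. The differences themselves do not depend on the WL arrays.

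Other genes of the same cells were tested as lists. Over all genes 808 passed between LL and WW, or 3.13%, with 1.21% higher and 1.92% lower. The list counts given here rest on all arrays, and fewer of all genes passed when an LL, LW or WW array was left out. Of 15 tested mast cell genes outside the 10, none passed between LL and WW in limma (5 at an unadjusted p under 0.05, against 24.8% of all genes, median -0.17). Hpgds, the prostaglandin D synthase of mast cells, was at -7.21 and -6.67 in LL, -3.97 and -4.89 in WL, -5.24 and -5.59 in LW, and -5.19 and -4.36 in WW (adjusted p = 0.0534). It was above background on 0 LL, 2 WL, 0 LW and 1 WW arrays, so the size of its difference between LL and WW was not measured. Mitf, a transcription factor that mast cells need, was at 0.24 and 0 in LL, 0.93 and 0.74 in WL, 0.9 and 0.71 in LW, and 0.8 and 0.94 in WW (LL minus WW -0.74, SE 0.165, adjusted p = 0.0731). Both LL mice were lowest for Mitf. Of 15 basophil genes 3 were called lower in LL, where 1.92% of all genes were (median -1.25 against 0.03 over all genes). The difference was above 0 for 4 and below 0 for 11. The largest difference was a rise, of Il6 by 4.47 (SE 1.52, adjusted p = 0.154), which did not pass. Their summed level was 98 and 114 in LL, 90.3 and 175 in WL, 82.2 and 71.8 in LW, and 80.6 and 81.3 in WW. Cd63 made up 57.1 to 73.8% of that sum. The integrin Itga2b fell by 2.9 (SE 0.431, adjusted p = 0.0288), the activation marker Cd69 by 2.73 (SE 0.458, adjusted p = 0.0401) and the transcription factor Cebpa by 1.69 (SE 0.308, adjusted p = 0.0469). Itga2b, above background on 1 of the LL arrays, is also a platelet integrin, Cd69 is on many activated leukocytes, and Cebpa is used by other myeloid cells and alveolar epithelium. Over all 13 lists described here, 169 genes were tested, and none passed in limma in WL or LW against WW (14 and 2 at an unadjusted p under 0.05, against 8.18% and 2.2% of all genes).

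The kinases and adaptors behind the IgE receptor were mostly lower in LL. Of 21 tested genes 11 fell and none rose (median -1.74). The exchange factor Vav1 fell by 2.87 (SE 0.291, adjusted p = 0.0137), the kinase Btk by 2.87 (SE 0.3, adjusted p = 0.0144), the lipid kinase subunit Pik3cd by 2.6 (SE 0.305, adjusted p = 0.0167) and the kinase Tec by 1.23 (SE 0.162, adjusted p = 0.0218). These genes are shared with other blood cells, and 5 of 6 pan-leukocyte genes fell too (median -2.9). Ptprc, also on that list, did not pass, at 4.16 and 4.08 in LL and 4.43 and 4.43 in WW (LL minus WW -0.31, SE 0.16, adjusted p = 0.273). The receptor's gamma chain Fcer1g, which also serves IgG receptors of macrophages, is on this list and was at -0.23 and 1.13 in LL, 3.63 and 3.99 in WL, 3.2 and 2.87 in LW, and 3.3 and 3.68 in WW. It fell by 3.04 in LL (SE 0.442, adjusted p = 0.0278), while the IgE-binding chain Fcer1a differed by -0.16 and did not pass. The 2 chains cannot be set against each other in size. Fcer1a was on no array more than 1.75 above the lowest level above background, so a fall like that of Fcer1g could not have been measured. Of 17 histamine and eicosanoid genes 1 rose and 2 fell (median -0.04). The cyclooxygenase Ptgs1, made by mast cells and also by endothelium and platelets, was at 3.73 and 3.98 in LL, 2.69 and 2.98 in WL, 2.48 and 2.23 in LW, and 2.45 and 2.73 in WW, a rise of 1.27 (SE 0.198, adjusted p = 0.0333). Alox5, the first enzyme of leukotriene synthesis, fell by 2.78 (SE 0.411, adjusted p = 0.0286). The leukotriene receptor Cysltr2 was above background on no LL array and, by the approximate bound, was at least 1.89-fold lower in LL (adjusted p = 0.0409).

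Of 10 growth and survival factor genes of mast cells and basophils, the interleukin 7 receptor Il7r fell by 1.66 (SE 0.213, adjusted p = 0.0205) and 9 did not pass. Il7r is also 1 of 11 genes of group 2 innate lymphoid cells, of which 2 fell. Of 8 eosinophil genes 2 fell, Siglecf and Ear2, both also alveolar macrophage genes in mice. Siglecf was below background on both LL arrays and, by the approximate bound, at least 16.4-fold lower. The summed eosinophil level was 2.93 and 3.22 in LL, 35.4 and 10.5 in WL, 31 and 19.6 in LW, and 23 and 25.4 in WW. Ear2 made up 58.4 to 78.5% of it. Of 12 dendritic cell genes 5 fell. The summed level of the 15 other mast cell genes was 29.3 and 35.1 in LL, 31.7 and 42.8 in WL, 31.2 and 32 in LW, and 33.7 and 36 in WW, with the groups overlapping. Srgn, a granule proteoglycan that many leukocytes make, was 39.9 to 61% of that sum.

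**Figure D3:**
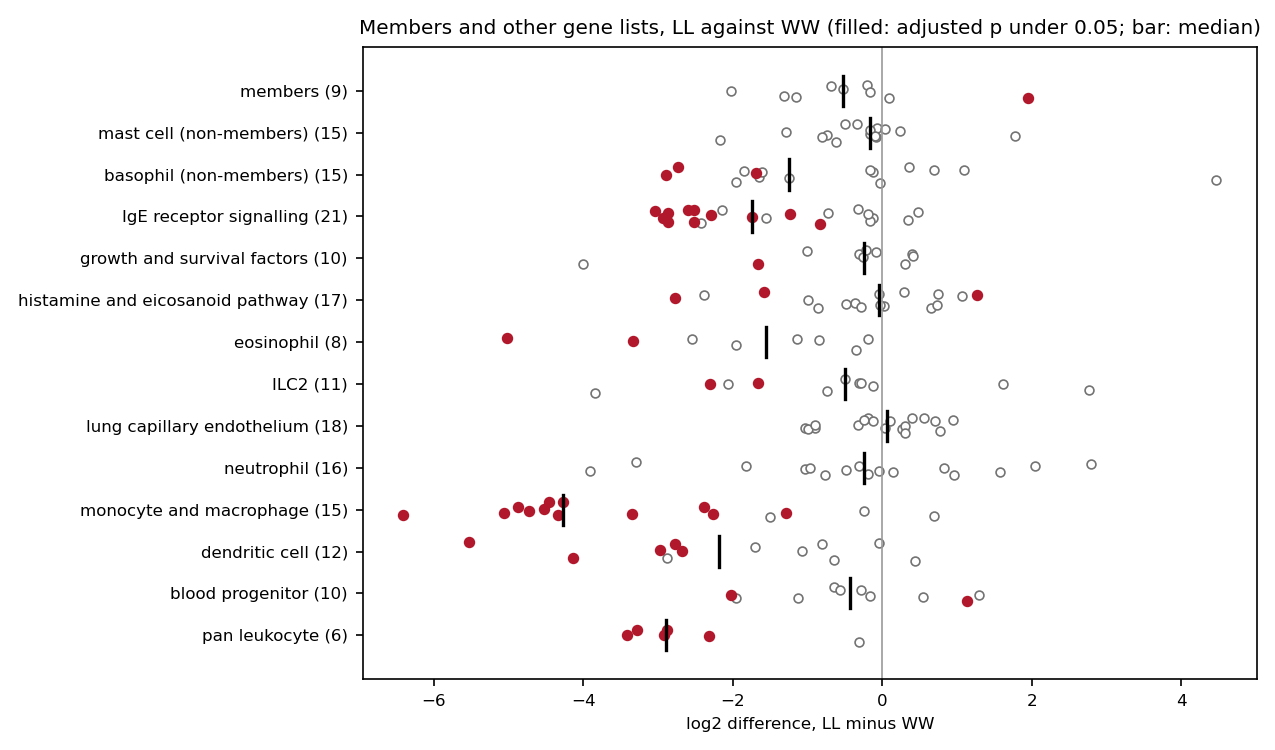
Each point is 1 tested gene, placed by its log2 difference between LL and WW, with the number of tested genes beside each list name. Filled points passed at an adjusted p under 0.05 and black bars are medians, which lie at -0.53 for the 9 mast cell and basophil genes, -0.17 for the other mast cell genes and -1.74 for IgE receptor signalling.

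Tpsb2 lies in a cluster of serine protease genes, and its neighbours were examined after its values were seen. Of the 30 RefSeq genes nearest to it, 15 on each side, 14 were tested and none passed between LL and WW in limma (4 at an unadjusted p under 0.05, against 24.8% of all genes). Tpsg1, the membrane-bound tryptase next to it, was at -4.6 and -4.67 in LL, -5.95 and -4.25 in WL, -6.15 and -6.62 in LW, and -6.43 and -6.38 in WW. It was above background on 2 LL, 1 WL, 0 LW and 0 WW arrays. The difference between LL and WW did not pass (measured means -4.64 and -6.4, adjusted p = 0.123). Its size was not bounded, since on the first WW array a spot of Mcpt8 at -4.43, above the LL mean of Tpsg1, was not well above background. The proteases Prss34, another mast cell and basophil tryptase, and Prss28 differed by -0.16 (adjusted p = 0.696) and -0.24 (adjusted p = 0.428). At the ends of the window, Chtf18 differed by 1.38 (SE 0.264, adjusted p = 0.0532) and BC003965 by 0.02 (adjusted p = 0.97).

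**Figure D4:**
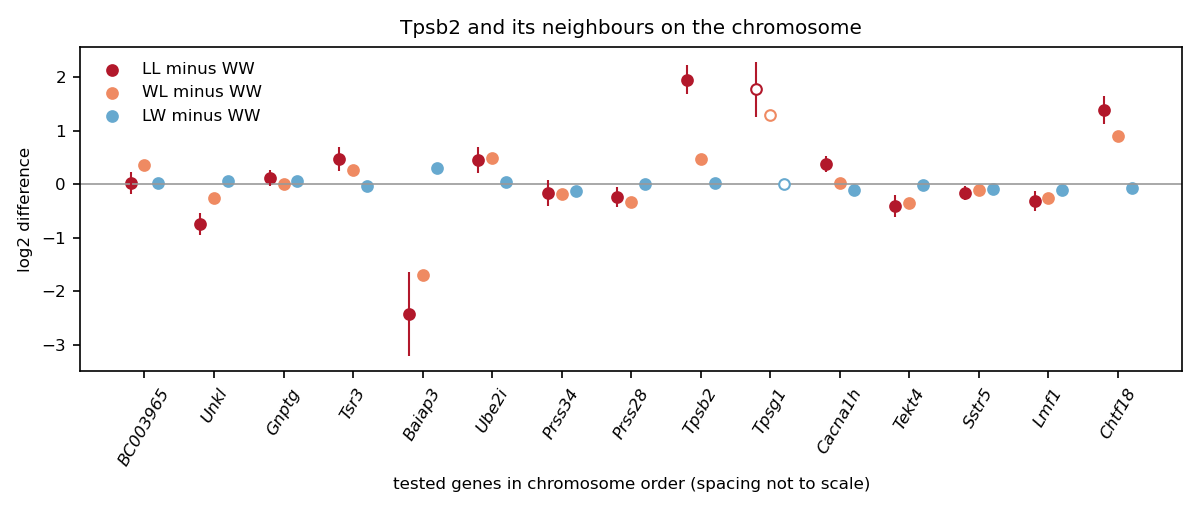
Points are log2 differences from WW for Tpsb2 and its tested neighbours in chromosome order, in LL (with standard errors), WL and LW. Open points are differences in which a group had no array above background, as for Tpsg1, whose height is therefore no measured size. Tpsb2 stands at 1.95 in LL, and Prss34 and Prss28 lie near 0.

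Genes whose pattern over the 8 arrays was most like that of Cpa3 were sought among 14774 genes above background on every array, predicted genes left out. They were Lag3 (Pearson r = 0.926), Trim59 (0.924), Sult1e1 (0.882), Creg2 (0.834) and Odf3 (0.833). For Mcpt8 they were Ftl1 (0.919), Pkd1l2 (0.872), Gsdma3 (0.866), Ppp1r3e (0.854) and Rpgrip1l (0.852). The mast cell and basophil genes followed here were themselves left out of the search. None of the genes found was on the lists of other mast cell or basophil genes. Those lists hold 15 tested genes each, few beside the 14774 searched, so their absence does not bear on cell type. The correlations rest on 8 arrays of 4 groups, and Cpa3 and Mcpt8 were near background on some of them.

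GATA-family transcription factors, of which Gata2 is needed by mast cells and basophils, recognise the letters AGATAA. That motif was looked for on both strands in the 250 bases before each gene's start in RefSeq (GRCm38.p6), where 8 of the 10 genes have an entry. It was present for Cpa3, Fcer1a and Ms4a2, 3 of the 8, and in 9.99% of 32851 promoters. The stretches of Cpa3 (chr3:20242182-20242431, minus strand) and Fcer1a (chr1:173227230-173227479, minus strand) are shown 5′ to 3′ because each holds 1 match. The motif or its reverse complement TTATCT is in capitals.
Cpa3: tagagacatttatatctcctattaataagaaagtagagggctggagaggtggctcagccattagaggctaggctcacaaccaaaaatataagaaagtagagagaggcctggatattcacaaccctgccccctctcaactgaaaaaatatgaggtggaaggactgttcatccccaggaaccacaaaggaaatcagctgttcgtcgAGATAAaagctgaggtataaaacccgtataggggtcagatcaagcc
Fcer1a: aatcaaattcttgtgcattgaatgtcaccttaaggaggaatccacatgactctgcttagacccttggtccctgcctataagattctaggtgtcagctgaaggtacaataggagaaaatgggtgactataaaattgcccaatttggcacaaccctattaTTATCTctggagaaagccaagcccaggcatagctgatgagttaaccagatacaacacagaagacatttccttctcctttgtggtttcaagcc
The match begins 46 bases before the start of Cpa3 and 92 bases before that of Fcer1a. Neither gene passed in any comparison, and Gata2 itself differed by 0.24 between LL and WW. Cma1, Mcpt4, Mcpt8, Kit and Hdc had no match to AGATAA in this window, and other forms of the motif were not looked for.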

How the data were processed

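RNA of 8 lungs, carrying the Cy3 dye, was read on Agilent arrays of 1 colour, 1 per mouse, per the labels. The deposited array files hold intensity values from Agilent Feature Extraction 11.5.1.1, background-subtracted and detrended within each array without scaling between arrays, per the file headers. The deposited series table is in log2 units: compared with the array files, each column was the log2 processed intensity shifted so that the array's 75th percentile is 0, and genes were not centred. Flags of the scanner software, also deposited, mark spots well above background and outliers.

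From the intensities, non-uniform spots were left out (0 to 4 per array), spots of a probe were averaged, log2 was taken and each array's 75th percentile subtracted. Probes that both arrays of some group read above background were kept (39602), and the brightest probe stood for each gene (25830 genes). No spot of the 10 genes was saturated. Tests used limma 3.58.1 (R 4.3.3) on 4 group means of all 8 arrays (4 residual and 2.19 prior degrees of freedom), with Benjamini-Hochberg adjustment over all 25830 genes in each of 6 comparisons and a call at an adjusted p under 0.05. A probe below background on both arrays of a group gives only an approximate bound there, so its fitted difference is no bound. The bound is set against the lowest level above background of each array, and a spot's own limit can lie higher. With 2 mice per group an exact permutation test could not go below 0.333, so none was used, and the number of arrays limits the precision.

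The 10 genes, the 13 gene lists and the alternatives were chosen with earlier results of these data known. Other genes were picked by rule, per list up to 4 called in LL against WW by smallest p. Where none was called, the 2 of smallest p were taken. The 5 genes most like Cpa3 and Mcpt8 were also named. Genes picked in the monocyte and macrophage, dendritic cell and pan-leukocyte lists enter the text only as counts. So does Il17rb of the innate lymphoid cell list. Lyz2 and Ptprc were named as checks. Gata2, Fcer1g, Tpsg1, Prss34, Prss28, Chtf18, BC003965, Il6, Il1b, Ngp, Aplnr and the brightest gene of each summed list were named after their values were seen. Over all genes, same-numbered mice of 2 groups had deviations correlating at -0.1 to 0.19. This cannot show that the replicate numbers were unrelated for every gene. The summed neutrophil level was higher in replicate 2 than in replicate 1 in each group, and the reason was not tested. Sequences are from the array files and RefSeq (GRCm38.p6). Figures were drawn with matplotlib 3.10.9 in Python 3.11.15.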

Additional observations from a re-analysis of the deposited data

How the results depend on the processing

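The tests of the 9 genes and their counts were recomputed under another background correction (normexp, offset 50), quantile normalisation, a percentile over probes above background on all arrays, no detection filter or a stricter one, a replicate block, the deposited table, the mean over a gene's probes, a trend and robust variance model, only the compared arrays, no WL array, and without each array in turn. Mcpt8, Cpa3 and Ms4a2 are not in the stricter filter, and the medians and sums of the lists and the neighbours of Tpsb2 were not recomputed. A block for slide or scan was not run, since there was 1 of each. Over 996 values of the single genes in these settings, 907 kept direction and call, 13 lost a call, 34 gained one, 42 changed sign with no call in either, and 0 reversed a called direction. The count of the 9 genes called between LL and WW was 1; it was 4 with the compared arrays alone, 6 without both WL arrays and 0 to 6 when 1 array was left out. Between LL and LW it was 1, then 0 with no detection filter, 2 with the compared arrays alone, 2 without both WL arrays and 0 to 2 without 1 array. Between LL and WL it was 0, then 1 (Tpsb2) with normexp and 0 to 4 without 1 array. Between WL and WW it was 0, and 0 to 5 without 1 array, the 5 (Tpsb2, Cma1, Mcpt8, Ms4a2 and Kit) coming without WL replicate 1, when 1 WL mouse stood for its group. For the interaction it was 0, and 0 to 1 without 1 array. Between LW and WW it was 0 in every setting. With the replicate block the counts were unchanged at 1 between LL and WW, 1 between LL and LW and 0 in the others, with Tpsb2 at an adjusted p of 0.0374 against WW, while 447 genes passed over all, against 808 without the block. Genes passing between LL and WW numbered 400 with no detection filter, 6242 with the compared arrays alone and 8285 without both WL arrays. Without 1 array they numbered 4 (LL or WW replicate 1) to 8285 (either WL). Wherever leaving out 1 WL array gave more calls among the 9 genes, more of all genes passed too than with all arrays. This held between WL and WW, between LL and WL and for the interaction as well. Whether the 9 genes differed from all genes there was not tested. Settings with other arrays in the model use another estimate of the spread by construction, and beyond this the cause was not tested. Leaving out arrays outside a comparison, the variance model and the replicate block keep each difference the same, so its direction could not change there. The deposited table holds the same intensities. Genes that were called neither before nor after also count among the 907. Probes near background (Mcpt8, Ms4a2) are limited by signal.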
